A study of Arabidopsis thaliana with 10 samples.

Results

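The Arabidopsis genes CAT1 (AT1G20630), CAT2 (AT4G35090) and CAT3 (AT1G20620) encode catalases. They were taken by their locus codes, 3 of 32824 genes in the deposited table, and all 3 passed the filter on low values that 17713 genes passed. The table holds RNA-seq of whole shoots of Arabidopsis thaliana as FPKM, fragments counted relative to the length of a transcript and to the size of its library. Wild-type Col-0 plants (WT) gave 5 libraries. Another 5 came from a line (OE) that expresses BnaC02.TPS8 from oilseed rape, a gene of the trehalose-6-phosphate synthase family, under the constitutive 35S promoter. Plants of both groups grew 10 days on agar with diluted MS salts and added sucrose, under the condition the labels call normal and the series description nitrogen sufficient. The sample titles name the line OE-11 and the series description names O2, so a single line stands for the transgene and which one is unclear. Separate cultures are not named in the labels, so that p-values cover only the spread among these libraries, which may be technical.

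Catalases are haem enzymes that split hydrogen peroxide into water and oxygen inside peroxisomes. In leaves much of that peroxide comes from photorespiration, in which glycolate oxidase oxidises glycolate, and another part from the beta-oxidation of fatty acids. In Arabidopsis, CAT2 is known as the main catalase of photosynthetic leaf cells, CAT3 is linked to vascular tissue and to ageing leaves, and CAT1 to pollen, seeds and abscisic acid signalling. CAT2 and CAT3 are also known to follow the circadian clock in Arabidopsis, CAT2 with a peak in the morning and CAT3 with a peak in the evening.

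Transcripts of CAT1 fell in OE shoots to 0.773 times the WT level, while CAT2 and CAT3 stood at 0.844 and 0.903 times the WT level and did not pass the test. CAT3 was by far the most abundant of the family in each library, at 12.5 to 17.9 times the FPKM of CAT2. CAT2 in turn stood at 2.23 to 3.75 times the FPKM of CAT1. The order CAT3, CAT2, CAT1 was therefore the same in the 10 libraries, and the ranges of neighbours in that order did not overlap. Of all 32824 genes ranked by their mean FPKM, CAT3 was number 73, CAT2 number 1226 and CAT1 number 3273.

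The family members differ in sequence. By the annotation of RefSeq for TAIR10.1, the coding sequences of CAT1 and CAT2 were identical at 80% of aligned positions, those of CAT1 and CAT3 at 68.8% and those of CAT2 and CAT3 at 68.2%. Stretches of 31 nt, counted over all annotated transcripts, were shared in 2 cases by CAT1 and CAT2 and in none by CAT3 with either. Read in the sense direction, no annotated transcript of another gene shared such a stretch with a catalase. CAT3 and CAT1 are direct neighbours on the same strand, with CAT3 first. CAT2 overlaps the end of AT4G35080, a gene of the nickel transport family on the other strand, by 95 nt. Fragments from those 95 nt cannot be assigned to a strand from the sources used here; AT4G35080 stood at 18.0 ± 0.721 FPKM in WT against 19.0 ± 0.401 FPKM in OE (SD, n = 5).

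CAT1 stood at 37.7, 43.4, 43.6, 43.1 and 44.0 FPKM in WT libraries 1 to 5. In OE libraries 1 to 5 it stood at 32.6, 29.6, 37.8, 34.9 and 28.8 FPKM. The groups overlapped at a single point: WT library 1 lay just under OE library 3, and each of the other 4 OE libraries lay below all WT libraries. The mean fell from 42.4 ± 2.63 FPKM to 32.7 ± 3.73 FPKM (SD, n = 5). On the log2(FPKM + 1) scale, which slightly understates such changes, the difference was -0.37 (SE 0.08, 95% interval -0.55 to -0.19). The limma adjusted p, corrected over all 17713 genes by the Benjamini-Hochberg method, was 0.0387. Permuting the genotype labels in every way (exact permutation test, two-sided) gave p = 0.0159, where 0.00794 is the smallest that 5 against 5 can give. Past the limma threshold of 0.05 were 2.89% of all tested genes, 2.37% higher and 0.525% lower in OE, against which stands 1 of the 3 catalases. By its p, CAT1 was number 423 of the 17713 genes and so close to the threshold. The call was lost without any 1 of 8 libraries (WT replicates 2, 3, 4 and 5, OE replicates 1, 2, 4 and 5; limma adjusted p = 0.0651 to 0.112). In each of these cases CAT1 stayed lower in OE, by 0.32 to 0.39 on the log2 scale.

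**Figure D1:**
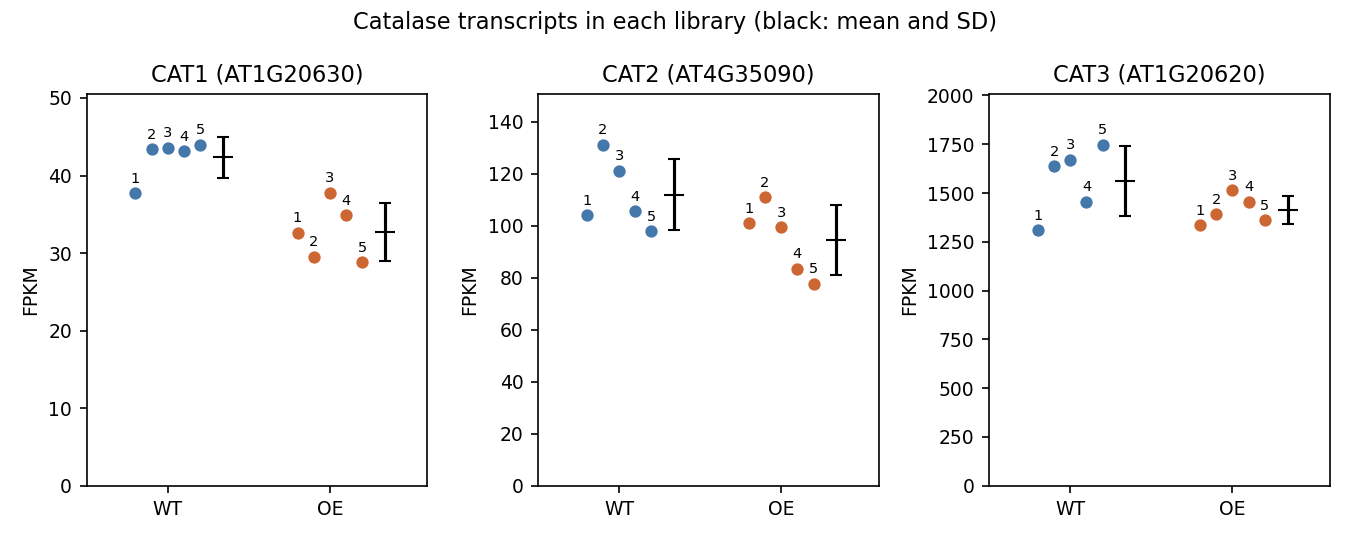
FPKM of CAT1, CAT2 and CAT3 in each library, one panel a gene with its own axis from 0; points are libraries labelled with their replicate number, blue for WT and orange for OE, and black bars are the mean and SD of 5 libraries. CAT1 lies below 37.7 FPKM in 4 of 5 OE libraries, while the groups overlap broadly for CAT2 and CAT3.

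CAT1 also missed the threshold with no filter, with no variance trend and with weights for the libraries (limma adjusted p = 0.0511, 0.0580 and 0.0597). Its difference moved little: over all settings it lay between -0.42 and -0.32, as the plot of CAT1 under each setting shows.

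**Figure D2:**
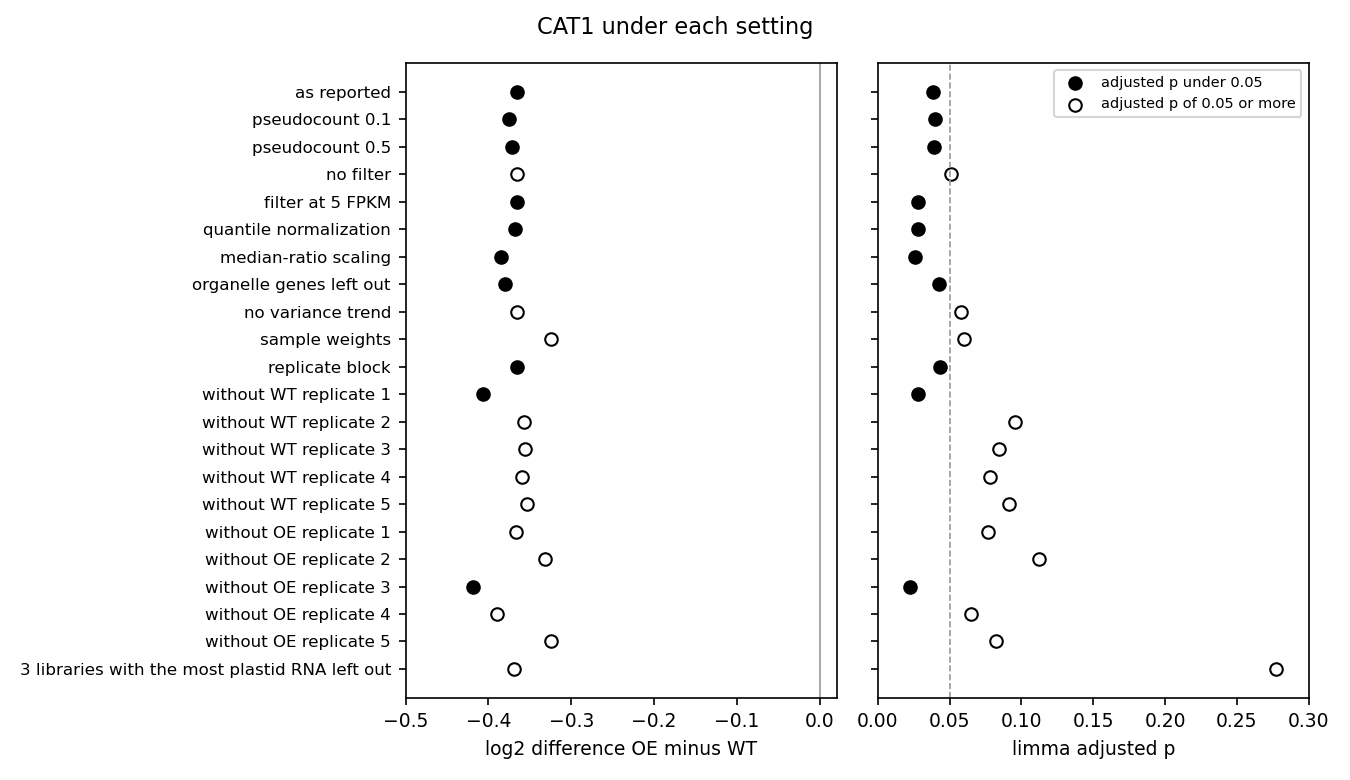
CAT1 under each processing setting: left the log2 difference OE minus WT, right the limma adjusted p with a dashed line at the threshold of 0.05; filled points passed. The difference stays between -0.42 and -0.32, while the adjusted p runs from 0.0224 to 0.277 and crosses the threshold in many settings.

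CAT2 stood at 104, 131, 121, 106 and 97.9 FPKM in WT libraries 1 to 5. OE libraries 1 to 5 held 101, 111, 99.4, 83.4 and 77.7 FPKM. The groups overlapped: 2 OE libraries, 4 and 5, lay below all WT libraries, and 2 WT libraries, 2 and 3, lay above all OE libraries. The means were 112 ± 13.8 FPKM and 94.5 ± 13.6 FPKM (SD, n = 5), a log2 difference of -0.25 (SE 0.11, 95% interval -0.49 to -0.004). It did not pass over all genes (limma adjusted p = 0.321, exact permutation p = 0.103, two-sided). The unadjusted limma p of 0.0466 was reached or bettered by many genes, since 15.1% of all tested genes had an unadjusted p under 0.05, 5.26% with a lower level in OE. The interval runs from 0.713 to 0.997 times the WT level, so that a fall as large as that of CAT1 is within it.

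CAT3 stood at 1308, 1637, 1670, 1455 and 1748 FPKM in WT libraries 1 to 5. In the OE libraries the values were 1336, 1392, 1514, 1455 and 1361 FPKM. WT libraries 2, 3 and 5 lay above all OE libraries, but WT library 1 had the lowest value of all 10. The means were 1564 ± 179 FPKM and 1412 ± 72.7 FPKM (SD, n = 5), with a log2 difference of -0.14 (SE 0.08, 95% interval -0.31 to 0.03; limma adjusted p = 0.438, exact permutation p = 0.135, two-sided). The interval covers 0.806 to 1.02 times the WT level. All 3 catalases had a difference below 0, as did 49.2% of all tested genes, and their median was -0.25 beside 0.00 over all tested genes.

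Summed over the family, catalase transcripts came to 1450, 1811, 1835, 1603 and 1890 FPKM in WT libraries 1 to 5. The sums in OE were 1470, 1533, 1652, 1574 and 1467 FPKM. The OE range thus lay inside the WT range, and the spread was larger in WT (SD 185 FPKM) than in OE (SD 77.3 FPKM). CAT3 made up 90.2% to 92.5% of the sum in WT and 90.8% to 92.7% in OE. The share of CAT2 was 5.18% to 7.24% in WT and 5.30% to 7.24% in OE. For CAT1 the share was 2.33% to 2.69% in WT and 1.93% to 2.29% in OE, without overlap. CAT3 stood at 33.7 to 39.8 times CAT1 in WT and at 40.1 to 47.2 times CAT1 in OE, without overlap. Since CAT3 made up most of the sum, this ratio largely restates the share of CAT1. These sums and shares were not tested, since they are scores over members chosen with earlier results known.

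The libraries were of similar depth, and counting error was small beside their spread. By an estimate from the smallest steps between low values they held 1.83e+07 to 2.33e+07 fragments, of which 1310 to 1970 were from CAT1. Counting error alone would give CAT1 a coefficient of variation of at most 2.76%, where 6.21% was seen among WT libraries and 11.4% among OE libraries. The libraries differed in RNA of the plastid genome, which made up 0.552% to 4.28% of the FPKM sum in WT and 0.442% to 2.90% in OE. Without the 3 libraries richest in it (WT 2, WT 4 and OE 4), CAT1 differed by -0.37 on the log2 scale, as before, with a limma adjusted p of 0.277. In that smaller set limma passed 0 of 17684 genes, and 1845 had an unadjusted p under 0.05.

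Genes around the catalases were read from lists by function, and members without a call that are not the most abundant of their list were named after their values were seen. Genes of the photorespiratory cycle, which recovers carbon from glycolate and in which catalase removes the peroxide, were lower in OE as far as they passed. Of 10 listed genes, 3 fell and none rose; all 10 differences were below 0, with a median of -0.18. Of all tested genes 0.525% passed with a lower level in OE, and 49.2% had a difference below 0. HPR1 (AT1G68010), the peroxisomal hydroxypyruvate reductase, stood at 464, 462, 427, 475 and 472 FPKM in WT libraries 1 to 5 and at 400, 373, 386, 340 and 397 FPKM in OE. The groups did not overlap, and the log2 difference was -0.28 (SE 0.06; limma adjusted p = 0.0230, n = 5). AGT1 (AT2G13360), the peroxisomal serine:glyoxylate aminotransferase, fell from a WT mean of 1013 ± 70.2 FPKM to 854 ± 40.2 FPKM (log2 -0.24; limma adjusted p = 0.0451). GGT1 (AT1G23310), the peroxisomal glutamate:glyoxylate aminotransferase, fell from a WT mean of 774 ± 16.7 FPKM to 674 ± 36.2 FPKM (log2 -0.20; limma adjusted p = 0.0480). In 5 of the 10 genes the groups did not overlap, where 5.83% of all tested genes had no overlap. GGT2, the other listed glutamate:glyoxylate aminotransferase, had the largest difference of the 10, at -0.35, without overlap. It did not pass (limma adjusted p = 0.108). PGLP1 and GLYK, at -0.09 and -0.01, did not pass either (limma adjusted p = 0.636 and 0.976). Nor did the 4 mitochondrial members. Of the glycine cleavage complex, GLDP1 had a log2 difference of -0.26, GLDP2 of -0.09 and GLDT of -0.05 (limma adjusted p = 0.273, 0.646 and 0.717). SHM1, a serine hydroxymethyltransferase, had one of -0.15, and its groups did not overlap (limma adjusted p = 0.108). The 3 called genes were thus all peroxisomal. The differences of GLDP1 and GGT2 were no smaller than those of the called AGT1 and GGT1, and a division of the list by compartment was not tested.

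The count of 3 leaned on single libraries. It was 0 without WT replicate 2, 4 or 5 or OE replicate 2, 1 without WT replicate 3 or OE replicate 1, 3 or 4, and 2 without WT replicate 1. No gene of the list passed without the 3 libraries richest in plastid RNA, with a median log2 difference of -0.16. Chlorophyll-rich cells are the site of photorespiration, and the 4 listed markers of mesophyll, the photosynthetic leaf tissue, were below 0 too. None of them passed. An unadjusted p under 0.05 was found for 2, both lower in OE, as for 5.26% of all tested genes. With a block for the replicate number 1 of the 4 passed, where 781 of 17713 genes did. LHCB2.1, an antenna protein, had a log2 difference of -0.34, CA1, a carbonic anhydrase, -0.15, RCA, Rubisco activase, -0.11, and RBCS1A, the Rubisco small subunit, -0.002 (limma adjusted p = 0.246, 0.234, 0.535 and 0.993). The summed mesophyll markers ranged from 26980 to 32090 FPKM in WT and from 27070 to 31170 FPKM in OE. RBCS1A made up most of that sum, with means of 21380 FPKM in WT and 21340 FPKM in OE. The part of mesophyll in the differences of catalases and photorespiratory genes was not tested. In bulk shoots, fewer cells of a type and less RNA per cell cannot be told apart.

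**Figure D3:**
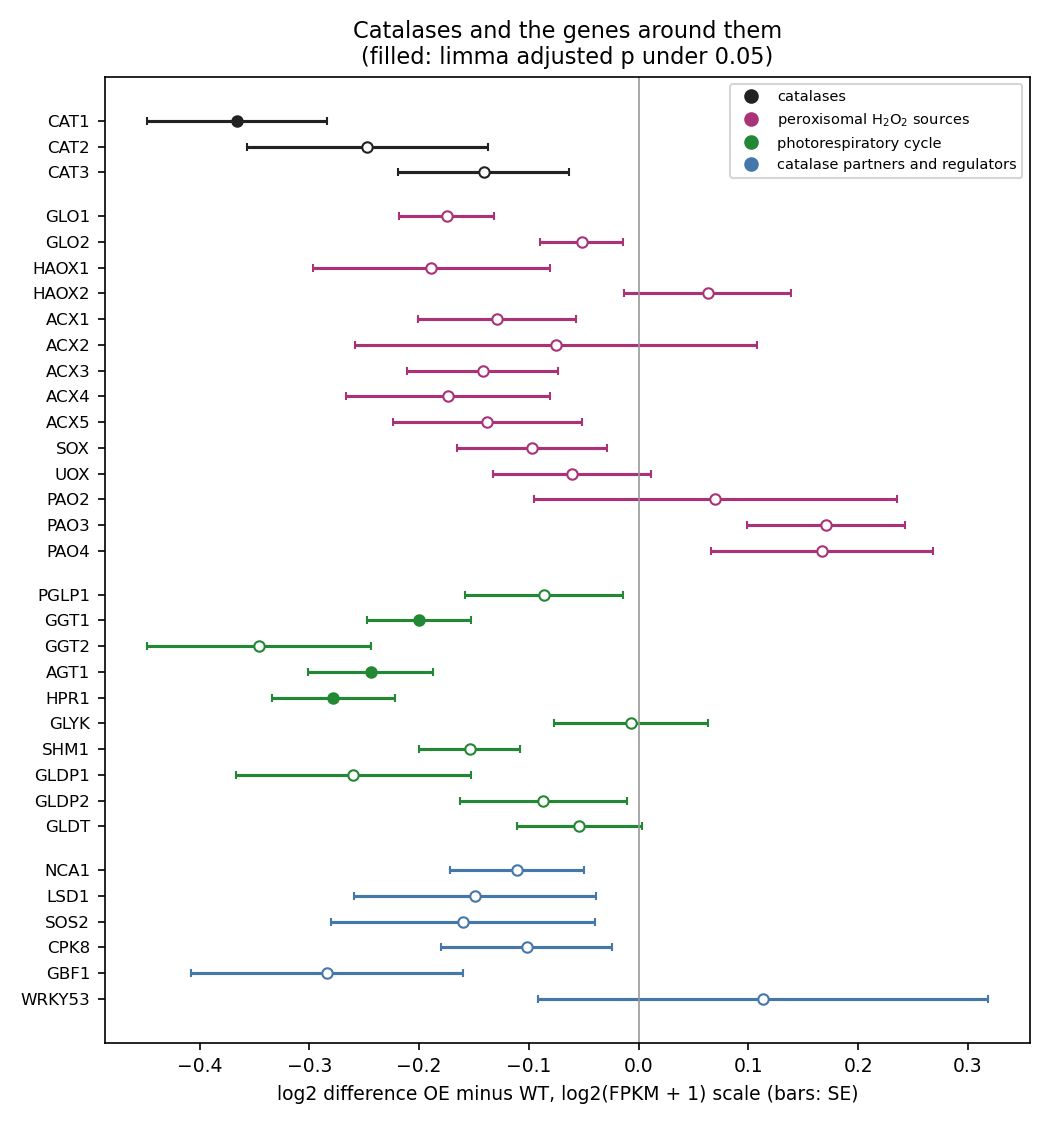
Log2 difference OE minus WT on the log2(FPKM + 1) scale with its SE (5 against 5 libraries) for the catalases, the oxidases that produce hydrogen peroxide in peroxisomes, the photorespiratory cycle and partners or regulators of catalase; filled points passed limma at an adjusted p under 0.05. CAT1 (-0.37), HPR1 (-0.28), AGT1 (-0.24) and GGT1 (-0.20) are filled, all to the left of 0.

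None of the 14 tested oxidases that make hydrogen peroxide in peroxisomes passed, and 10 of the 14 were below 0 (median -0.09). An unadjusted limma p under 0.05 was found for 2, where 15.1% of all tested genes had one. Of these 2, GLO1 was lower in OE and PAO3 higher (log2 0.17; limma adjusted p = 0.288). In 4 settings 1 of the oxidases passed as lower in OE: with the filter at 5 FPKM, quantile normalization, organelle genes left out or weights for the libraries. The most abundant was glycolate oxidase GLO1 (AT3G14420), the enzyme that feeds photorespiratory peroxide to catalase. It stood at 717 ± 25.9 FPKM in WT against 634 ± 17.9 FPKM in OE (log2 -0.18, SE 0.04; limma adjusted p = 0.0556, n = 5). The lowest WT library held 685 FPKM and the highest OE library 651 FPKM, so that the groups did not overlap although the test was missed. GLO2, its close relative, stood at 493 ± 11.3 and 475 ± 6.47 FPKM (limma adjusted p = 0.578). Among the acyl-CoA oxidases, which start fatty acid beta-oxidation, ACX4 stood highest, at 102 ± 15.2 and 89.9 ± 4.94 FPKM (limma adjusted p = 0.418). Summed over the list of 16 genes, the level was 1560 to 1639 FPKM in WT and 1454 to 1510 FPKM in OE; this sum was not tested.

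Catalases reach the peroxisome through the import receptor PEX5 and its partners, none of whose 12 genes passed (8 below 0, median -0.01, none with an unadjusted p under 0.05). The most abundant, PEX13 of the docking complex, stood at 58.4 ± 11.4 FPKM in WT against 51.6 ± 5.37 FPKM in OE (limma adjusted p = 0.616). Of 6 partners and regulators of catalase none passed, and 5 were below 0 (median -0.13). The most abundant was GBF1 (AT4G36730), a bZIP factor known to repress CAT2 in Arabidopsis, at 99.9 ± 12.6 and 82.2 ± 12.8 FPKM (log2 -0.28; limma adjusted p = 0.305). NCA1 (AT3G54360), a chaperone-like protein that catalase needs for its activity, stood at 76.2 ± 5.39 and 70.4 ± 2.91 FPKM (log2 -0.11; limma adjusted p = 0.431).

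Among other enzymes that remove hydrogen peroxide, 1 of 13 tested thiol peroxidases and none of 16 genes of the ascorbate-glutathione cycle passed, where 2.89% of all tested genes did, so that the count says nothing about these enzymes as a group. GPX1 (AT2G25080), a thiol peroxidase of the plastid, stood at 266, 274, 282, 269 and 284 FPKM in WT libraries 1 to 5. The OE libraries held 209, 193, 228, 183 and 198 FPKM, all below WT. Its log2 difference was -0.44 (SE 0.06; limma adjusted p = 0.00776, n = 5), and the call held without each single library (highest limma adjusted p = 0.0294). It was lost without the 3 libraries richest in plastid RNA (limma adjusted p = 0.129). The other 12 tested thiol peroxidases did not pass; the most abundant of them, the peroxiredoxin 2CPA, stood at 968 ± 26.1 and 987 ± 55.2 FPKM (log2 0.03). The list had a median of -0.04, with 8 of 13 below 0.

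In the ascorbate-glutathione cycle, which reduces hydrogen peroxide with ascorbate, 3 of the 16 tested genes had an unadjusted limma p under 0.05 (median 0.01). Over all tested genes the share was 15.1%. Of the 3, TAPX was lower in OE, while SAPX and MDAR6 were higher (MDAR6 log2 0.19; limma adjusted p = 0.141). A single gene of the 16 passed, as lower in OE, in 4 settings: the replicate block, median-ratio scaling, quantile normalization and the filter at 5 FPKM. Cytosolic APX1, the most abundant, stood at 558 ± 76.9 FPKM in WT against 534 ± 69.6 FPKM in OE (limma adjusted p = 0.829). The thylakoid form TAPX (AT1G77490) stood at 102 ± 4.92 and 83.1 ± 8.44 FPKM, without overlap (log2 -0.29; limma adjusted p = 0.0611). Its counterpart SAPX, of the plastid stroma, stood at 60.6 ± 8.33 and 74.4 ± 5.68 FPKM (log2 0.30; limma adjusted p = 0.142). Of 7 tested superoxide dismutases, which produce hydrogen peroxide from superoxide, none passed and 1 was below 0 (median 0.11). FSD2 and FSD3, both higher in OE (log2 0.235 and 0.328), had an unadjusted limma p under 0.05. The iron enzyme FSD1 was the most abundant, at 1168 ± 98.4 and 1246 ± 109 FPKM (limma adjusted p = 0.617).

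Marker genes of peroxide stress and of leaf ageing did not pass. None of the 8 tested members of the peroxide list had an unadjusted p under 0.05. Some varied too widely to show a modest change: ZAT12, ZAT10 and BAP1 had log2 differences of 0.16, -0.18 and 0.29 (SE 0.47, 0.41 and 0.38). The other 5 lay under the filter. Among these, OXI1, a kinase induced by hydrogen peroxide, stood at 0.360 ± 0.154 FPKM in WT against 0.457 ± 0.321 FPKM in OE. GSTU24 stood at 1.07 ± 0.125 FPKM in WT against 0.613 ± 0.241 FPKM in OE. With no filter, 1 of 13 had an unadjusted limma p under 0.05. FER1, a ferritin and the most abundant, stood at 282 ± 88.2 and 288 ± 38.2 FPKM (limma adjusted p = 0.897). For senescence 7 of 9 genes were tested and none passed (6 below 0, median -0.18, 1 with an unadjusted p under 0.05). SAG21, the most abundant, stood at 301 ± 105 and 274 ± 86.9 FPKM (limma adjusted p = 0.857). The protease gene SAG12, whose transcripts mark senescing leaves, was at 0 in all 10 libraries.

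Clock genes of the dawn were low in all libraries and those of the dusk were higher, beside the high CAT3 and lower CAT2. The dawn gene CCA1 ranged from 0.918 to 2.82 FPKM in WT and from 0.727 to 1.72 FPKM in OE, and its partner LHY stayed below 1 FPKM in both, between 0.318 and 0.926 in WT and between 0.337 and 0.656 in OE. Genes known to peak around dusk stood far above them: TOC1 at 43.9 to 69.6 FPKM in WT and 43.1 to 64.3 FPKM in OE, and LUX at 56.1 to 76.6 and 53.9 to 63.7 FPKM. CCA1 was lower in libraries 4 and 5 (1.16 and 0.918 FPKM in WT, 0.981 and 0.727 FPKM in OE) than in libraries 1 to 3 of both genotypes. TOC1 was higher in libraries 4 and 5 (57.8 and 69.6 FPKM in WT, 64.3 and 55.7 FPKM in OE) than in libraries 1 to 3 of both. LUX was higher in libraries 4 and 5 in WT only. The part of sampling time in the order of CAT3 and CAT2, or in their spread among libraries, was not tested, and the labels give no hour. None of 9 tested clock genes differed past the threshold between OE and WT (8 below 0, median -0.14). An unadjusted limma p under 0.05 was found for 2, where 15.1% of all tested genes had one. These were PRR7, lower in OE (log2 -0.26), and GRP7, higher in OE (log2 0.14). GRP7, a clock-controlled RNA-binding protein and the most abundant of the list, stood at 2625 ± 202 and 2886 ± 57.3 FPKM (limma adjusted p = 0.233).

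Markers of other tissues showed no call between the groups. Of 9 vascular markers none passed (5 below 0, median -0.02), and their sum was 353 to 372 FPKM in WT and 334 to 373 FPKM in OE. PP2-A1, a phloem lectin, was the most abundant, at 109 ± 5.41 and 112 ± 6.28 FPKM. Epidermis and guard cell markers numbered 6, of which 5 were below 0 and none passed (median -0.11); PDF1 of the epidermis stood at 115 ± 11.3 and 98.3 ± 18.7 FPKM. Among 6 root markers only the beta-glucosidase gene PYK10, which cotyledons also express, passed the filter, at 126 ± 23.3 and 122 ± 29.3 FPKM. The other 5, which mark root hairs and endodermis, had means of at most 0.251 FPKM in either group.

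With each genotype mean removed, CAT1 and CAT3, the neighbouring pair, had a Pearson r of 0.67 over the 10 libraries, while CAT2 had 0.16 with either of them. Among 12549 other genes with a mean of at least 5 FPKM, CAT3 ranked 816 in likeness to CAT1, and CAT1 ranked 523 in likeness to CAT3. These values describe 10 libraries that share their preparation and carry no p.

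The gene most like CAT3 in this sense was EBP (AT3G16770, also RAP2.3), an ethylene response factor, with r = 0.98 over 10 libraries. It stood at 192 ± 32.1 FPKM in WT against 162 ± 15.8 FPKM in OE (limma adjusted p = 0.394). COR413-PM2, a cold-regulated membrane protein, and UGT85A2, a glycosyltransferase, followed with r = 0.94 and 0.93. WPP2, with a WPP domain, and AT2G37660, with a Rossmann fold, ran most against CAT3, with r = -0.94 and -0.93.

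CAT1 was followed most closely by AT5G06700, of the trichome birefringence-like family, by AMSH1, a deubiquitinase, and by AT3G26580, a tetratricopeptide repeat protein (r = 0.95, 0.94 and 0.94). The mitochondrial genes AT5G23250, for a succinyl-CoA ligase subunit, and GAMMA CAL1 (AT5G63510), for a carbonic anhydrase-like protein, ran most against it (r = -0.96 and -0.95). AT5G23250 was itself called between the groups, at 21.7 ± 0.806 FPKM in WT against 26.6 ± 2.08 FPKM in OE (limma adjusted p = 0.0456). For CAT2 the closest were AT2G32450, a calcium-binding tetratricopeptide protein, AT1G10020, annotated as formin-like, and AT5G25240, annotated as stress induced (each r = 0.94). DABB1 (AT1G51360) and RTV1 (AT1G49480) ran most against CAT2, with r = -0.97 and -0.95. The genes named for each catalase are the extremes among 12549 ranked over 10 libraries, a selection that by itself gives r far from 0. Their names are a description of the 10 libraries and carry no p.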

How the data were processed

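RNA-seq libraries of shoots, prepared with the NEBNext Ultra II RNA kit per the labels' protocols, were quantified by the authors as FPKM, with 1 column per sample in the deposited table. Per the submitters' processing notes the tools were kallisto 043.1, sleuth, R 3.5.1, FastQC and Trimmomatic 0.36, with no step named for any of them. Neither build nor annotation is given in the sources used here. Samples were grouped by title. The main test was a limma fit (version 3.58.1, R 4.3.3) of log2(FPKM + 1) for the 17713 genes with a mean of at least 1 FPKM, with a variance trend, no covariate and Benjamini-Hochberg adjustment over all of them (threshold 0.05, two-sided). Exact permutation tests used the same log2 values. The fit was first tested on simulated data, in which 200 genes were changed by a set fold. It recovered 9.5% of them at 1.25-fold, 62.5% at 1.5-fold and 86.0% at 2-fold. With no change simulated it made 0 false calls, and beside the changed genes it made 0 at 1.25-fold, 7 at 1.5-fold and 3 at 2-fold. Genes were drawn independently, so that spread shared by many genes of a library was not simulated. Given the recovery at 1.25-fold, a gene that did not pass may still differ by a fold as small as those of the catalases.

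Depth was estimated from the smallest steps of genes with 1 transcript of at least 800 nt, for an assumed fragment length of 200 nt. Locus codes were matched to RefSeq, assembly TAIR10.1 (32539 of 32824; all 149 listed genes); no coordinates and no sequences are given. The members and the 15 gene lists were chosen with earlier results of these data known. The rule for named genes took the catalases, in each list at most 4 called members in order of adjusted p, or the most abundant member where none was called, and per catalase the 3 genes most and the 2 least like it by Pearson r. Lists are described by counts and medians, without a set test. Alternatives were other pseudocounts, filters, scalings, no trend, weights for the libraries, a replicate block and each library left out; the omission of the 3 libraries with most plastid RNA was chosen after seeing the data. Figures were drawn with matplotlib 3.10.9.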

Additional observations from a re-analysis of the deposited data

Results flagged for a closer look

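CAT1 in WT replicate 1 stood apart from the rest of its group, at 37.7 FPKM beside 43.1 to 44.0 FPKM in the other 4 WT libraries. Its gap to the nearest of them was 0.867 of the range of the group, where 0.71 is the critical value for 5 samples. Of 8 groups examined (the catalases and their sum in each genotype) it was the 1 past that value, and chance gives about 1 in 20. WT replicate 1 also had the lowest CAT3, at 1308 FPKM. Without it, the log2 difference of CAT1 was -0.41 (limma adjusted p = 0.0283) and that of CAT3 -0.20 (0.130).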

How the results depend on the processing

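The log2 difference of each catalase stayed below 0 in all settings run. CAT1 missed the threshold with no filter (-0.37, limma adjusted p = 0.0511), no variance trend (-0.37, 0.0580) and sample weights (-0.32, 0.0597), and without the 3 libraries richest in plastid RNA (-0.37, 0.277); the cause was not tested. Leaving out single libraries gave -0.42 to -0.32 for CAT1. CAT2 and CAT3 passed in none of the settings (limma adjusted p = 0.0575 to 0.748 and 0.130 to 0.664). The number of genes past the threshold, 512, was 207 to 536 with single libraries left out and 0 without the 3 plastid-rich ones. Photorespiratory genes past it numbered 1 with no filter or median-ratio scaling, 0 with no variance trend and 4 with the replicate block. Replicate numbers were not taken as pairs, since the labels tie them to nothing shared. The deviations of same-numbered libraries also had r of only -0.09 to 0.20. Numbers 1 and 5 were each other's best match, and libraries 2, 3 and 4 of either genotype matched best with a neighbouring number. CCA1 and TOC1 also split numbers 1 to 3 from 4 and 5 in both genotypes. A clearer order was found in the acyl-CoA oxidase ACX2 and the senescence gene SEN1, picked after their values were seen. In WT libraries 1 to 5 ACX2 held 25, 31, 36, 41 and 52 FPKM and SEN1 44, 95, 150, 269 and 412. In OE libraries 1 to 5 ACX2 held 25, 32, 36, 41 and 39 FPKM and SEN1 64, 82, 133, 216 and 177. Some genes thus had an order along the number that both genotypes share, though CAT1 did not. The main fit leaves such an order out, and its cause was not tested. With the replicate number as a block, 781 genes passed and CAT1 kept its call (limma adjusted p = 0.0431). CAT2, lower in OE at each of the 5 numbers, then had a limma adjusted p of 0.0575. Its unadjusted limma p was 0.00281 with the block and 0.0466 without it. The table gives no counts, so depth rests on an estimate.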

Other observations

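CAT2 was highest in library 2 (131 FPKM in WT, 111 FPKM in OE) and lowest in library 5 (97.9 FPKM in WT, 77.7 FPKM in OE) of both genotypes, a likeness seen after the values were known. CAT1 showed no such likeness, with its lowest value in WT library 1 and in OE library 5.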
